A study of Mus musculus with 6 samples.

Results

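Interferon-stimulated effector genes are the antiviral genes that a cell switches on when interferon reaches it. Here they are a list of 35 such genes, read in haematopoietic stem and progenitor cells of control and Med12-deficient mice. Their members were chosen as all probe sets that the array's annotation assigns to exactly 1 symbol of the list. This gave 52 probe sets for 33 of the 35 genes, out of 45037 probe sets tested. Ifi44 had no such probe set, and Isg15 was read only by a probe set it shares with another gene, so neither has a value. Of the 33 genes, 19 had 1 probe set and 14 had several.

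The cells were sorted from bone marrow as negative for lineage markers and positive for c-Kit and Sca1, a gate that holds stem cells and multipotent progenitors. There were 6 arrays, 3 per group, from mice of a B6/129 background. The knockout mice were Med12Flox;MxCre: a floxed Med12 allele with Cre driven by the Mx promoter, which responds to interferon and is active in many cell types. In both groups 4 days had passed since pI:pC, which mimics viral double-stranded RNA, induces interferon and so also starts Cre. Control genotype and Cre status are not stated in the labels. Whether an array stands for its own mouse is not stated either, and all p-values here rest on array-to-array spread, which may be technical. The groups therefore share the pI:pC injection, and the comparison asks which differences go with loss of Med12, a subunit of the Mediator kinase module.

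Interferon binds its receptor and activates the kinases Jak1 and Tyk2. The signal ends at a short DNA element, the interferon-stimulated response element, from which the effector genes are switched on. Effectors sense foreign nucleic acid, degrade it, block viral entry or release, and feed back on the signal. In marrow, interferon and pI:pC are known to raise these genes in stem cells and to push resting stem cells into division. Sca1, a sort marker of these cells, is the product of Ly6a, itself an interferon-induced gene.

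The core of the response element is shown first because it is the sequence by which most members are known to be switched on. The letters searched were GAAA, any 2 bases, then GAAA, on either strand, in the RefSeq promoter windows of GRCm38.p6. Each window runs from 250 bases before to 50 bases after a gene's start. For 73.4% of genes, at least 1 window was placed exactly on the start of the RefSeq gene. Positions here are counted from the start that the window uses. Windows were available for 25 of the 35 members. At least 1 match was found in 15 of these 25 genes (60%), against 3.99% of the 27025 genes in the table. The 60-base stretches printed here lie entirely before the start of 8 members that carry the letters there, printed on the gene's own strand, with the matching bases in capitals. On that strand a match on the opposite strand reads TTTC, any 2 bases, then TTTC, and overlapping matches run together.
Oas1a, chr5:120907526-120907585, minus strand: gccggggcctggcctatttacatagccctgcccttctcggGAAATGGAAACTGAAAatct
Oas3, chr5:120777700-120777759, minus strand: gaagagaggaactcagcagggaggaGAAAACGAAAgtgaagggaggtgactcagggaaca
Gbp7, chr3:142530258-142530317, plus strand: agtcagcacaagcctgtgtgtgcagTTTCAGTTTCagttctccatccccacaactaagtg
Gbp2, chr3:142620579-142620638, plus strand: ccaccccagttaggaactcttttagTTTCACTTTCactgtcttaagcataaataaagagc
Ifit1, chr19:34640769-34640828, plus strand: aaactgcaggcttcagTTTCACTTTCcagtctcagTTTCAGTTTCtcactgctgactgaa
Ifit3, chr19:34583365-34583424, plus strand: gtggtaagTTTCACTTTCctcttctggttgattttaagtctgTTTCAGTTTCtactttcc
Rsad2, chr12:26456538-26456597, minus strand: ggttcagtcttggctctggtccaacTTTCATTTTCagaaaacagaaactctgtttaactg
Bst2, chr8:71537565-71537624, minus strand: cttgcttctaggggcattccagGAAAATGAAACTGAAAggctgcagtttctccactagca

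Isg20, the member that rose most, had no match in its 3 windows. The 250 bases before the most upstream of its starts, on the plus strand, are printed for comparison.
Isg20, chr7:78913174-78913423, plus strand: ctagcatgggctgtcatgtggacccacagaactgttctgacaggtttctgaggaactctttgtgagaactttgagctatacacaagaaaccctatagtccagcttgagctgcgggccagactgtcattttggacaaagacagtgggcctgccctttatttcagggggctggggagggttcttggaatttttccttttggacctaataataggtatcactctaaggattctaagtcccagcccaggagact

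All array values below are the deposited linear signal intensities, which have no unit and are not compared between probe sets. Marker sums add them over probe sets, so that the brightest probe sets weigh most. Differences are knockout minus control on the scale log2(signal + 16), where the added 16 shrinks the change of dim probe sets. They were tested with limma and Benjamini-Hochberg adjustment over all 45037 probe sets, and "rose" and "fell" are used for an adjusted p under 0.05. A gene with several probe sets is represented by the one of highest mean signal unless another is named. Med12 itself had signals of 278.6, 837.4 and 441.6 in controls and 89.1, 100.4 and 86.4 in knockouts (log2 difference -2.17, SE 0.38; limma adjusted p = 0.0796). The median signal per array was 26.7 to 26.9 in controls and 16.5 to 21.3 in knockouts. Of the sort's own markers, Kit was at 805.2 to 1425.4 on control arrays and 514.8 to 617.5 on knockout arrays, and Ly6a had no probe set of its own. The 6 measured stem and progenitor markers summed to 4763.6 to 5726.1 and 1761.5 to 2376.2, and 1 of them, Hlf, fell. Cd34 was the brightest of them, at 2029.4 to 2278 on control arrays. Of the 6, 5 were lower in knockouts, and Slamf1 was higher, at 0.49. Slamf1 and Meis1, the latter at -0.30, overlapped between groups. Markers of other cell types were read on these arrays too and are given with the results they accompany.

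Among the interferon-stimulated effector genes 1 rose and 1 fell in Med12-deficient cells. Isg20, an exonuclease that degrades single-stranded RNA, was 5.59 times as high in knockouts by mean signal. Sting1, the adaptor that relays the alarm of cytosolic DNA, was at 0.301 times the control mean. The other 31 genes did not pass. Over all 18193 genes, with 1 probe set each, 0.989% passed, 0.352% higher and 0.638% lower. By probe set, 3 of 52 passed, 1 higher and 2 lower, against 0.762% of all probe sets, 0.22% higher and 0.542% lower. Before adjustment, limma's p was under 0.05 for 11 higher and 3 lower member probe sets of 52, against 5.81% and 9.89% of all probe sets.

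Most members that did not pass still had positive differences. Of 52 member probe sets 34 were higher in knockouts and 18 lower, while 38.8% of all probe sets were higher. By gene, 23 of 33 were higher, against 42.2% of all genes. After centring each array on its median, 43 of 52 were higher, where 71.5% of all probe sets were. After quantile normalization 40 were higher and 12 lower. The median of all probe sets was then 0.01 in place of -0.07, so the share of 38.8% does not apply there. The share of all probe sets that were higher under that setting was not computed. The median log2 difference was 0.26 over the member probe sets and -0.07 over all probe sets, or 0.37 and -0.05 without the dimmer 50% of probe sets. Centring moved the median of all probe sets by over 0.1, to 0.20, and that of the members to 0.54, so the members' distance from all probe sets stayed 0.34. That distance was 0.16 with 64 added in place of 16, where the member median was 0.13, and 0.22 with signals floored at 16. The 3 knockout signals lay above the 3 control signals in 12 member probe sets and below them in 2. Over all probe sets these shares were 7.61% and 13.3%, or 20.9% in either direction. The brighter 50% of probe sets hold 48 of the members, 34 of them higher, and there 46.1% were higher and the shares without overlap were 12.6% and 14.7%. By gene, 9 of 33 lay wholly above and 1 wholly below the controls, against 9.85% and 13.6% of all genes.

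**Figure D1:**
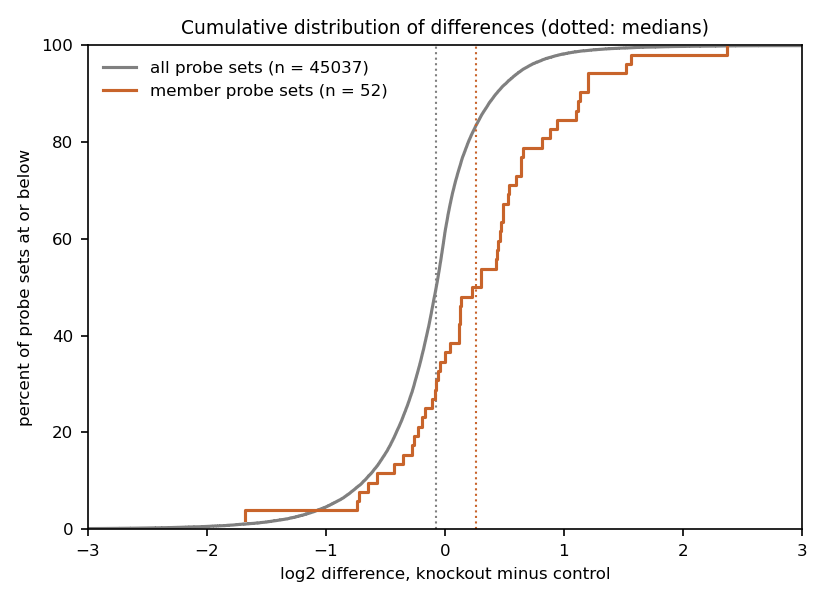
Cumulative percent of probe sets (vertical axis) at or below each log2 difference, knockout minus control (horizontal axis), for the 52 member probe sets and for all 45037 probe sets, with dotted lines at the medians. The member curve lies to the right of the curve for all probe sets over most of its course, with medians of 0.26 and -0.07, and starts with the 2 Sting1 probe sets at -1.68.

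Isg20 and Cmpk2 led the enzymes that act on RNA and nucleotides. Isg20 had signals of 130.3, 185.8 and 182.3 in controls and 1145.3, 869.9 and 769.5 in knockouts. Every knockout array was far above every control array, with means of 166 ± 31.1 and 928 ± 195 (SD, n = 3 each). The log2 difference was 2.37 (SE 0.21; limma adjusted p = 0.0293). Cmpk2, a mitochondrial kinase that supplies nucleotides, had signals of 64.3, 75.3 and 89.5 in controls and 241.8, 184.7 and 372.6 in knockouts. Its groups did not overlap, but the difference of 1.57 (SE 0.27) missed the threshold (limma adjusted p = 0.0761). The other Cmpk2 probe set was at 0.88, also without overlap. Rsad2, or viperin, which makes a nucleotide that ends viral RNA chains, is the direct neighbour of Cmpk2 on chromosome 12. Its difference was 0.44 (limma adjusted p = 0.340), with signals of 177.4, 220.1 and 152.6 in controls and 294.9, 256.2 and 211.8 in knockouts, whose ranges overlapped, values given because of its place beside Cmpk2, a choice made after they were seen. The other Rsad2 probe sets were at 0.22 and 0.04.

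Of the 6 nucleic acid sensors 1 fell and 5 did not pass, where 0.638% of all genes fell and 0.352% rose. Sting1 had signals of 841.7, 831.7 and 630 in controls and 203.4, 303.3 and 187.2 in knockouts on its brighter probe set, which passed (log2 difference -1.68, SE 0.22; limma adjusted p = 0.0479). Its other probe set gave 489.2, 530.1 and 484.4 in controls and 186.2, 121.4 and 135.4 in knockouts (log2 difference -1.68, SE 0.18; limma adjusted p = 0.0314). The probe sets thus gave the same size of fall, with no knockout array near any control array. The call on the brighter probe set was lost after quantile normalization (limma adjusted p = 0.0501), with 4 or 64 added in place of 16 (0.0633 and 0.0541) and with the floor (0.121), where the other probe set was lost as well (0.0821). Zbp1, a sensor of left-handed nucleic acid that can start cell death, had signals of 66.9, 125.8 and 107.2 in controls and 491.2, 251.8 and 238.7 in knockouts. All knockout values were higher, the most so on the array of replicate 1, and the difference of 1.53 (SE 0.34) did not pass (limma adjusted p = 0.119). The other Zbp1 probe set was at 0.49, with overlapping groups.

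Ifih1, or MDA5, which binds long double-stranded RNA such as pI:pC, had signals of 245, 155.9 and 104.2 in controls and 381.7, 321.3 and 409.8 in knockouts. These did not overlap, and the difference was 1.13 (SE 0.30; limma adjusted p = 0.156). It is given by array because its groups did not overlap, a choice made after its values were seen. The related sensors did not share this pattern. Ddx58, or RIG-I, was at 0.44 on its brightest probe set and at -0.07 and -0.11 on the others, which turned to 0.20 and 0.17 after median centring and to 0.05 and 0.06 after quantile normalization. Dhx58, or LGP2, was at -0.64 and overlapped between groups. Eif2ak2, the kinase PKR that halts translation, was at 0.43, with its other probe sets at 0.01 and -0.73.

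The feedback regulators were higher on every knockout array. Usp18, which removes ISG15 from proteins and damps the interferon receptor, had signals of 147, 123.9 and 87 in controls and 293.9, 233.2 and 293.5 in knockouts. The groups stood apart, with means of 119 ± 30.3 and 273 ± 34.9 (SD, n = 3 each), yet the difference of 1.12 (SE 0.21) missed the threshold (limma adjusted p = 0.0904). Irf7, the factor that amplifies interferon production, had signals of 51.3, 87.5 and 64 in controls and 135, 94.8 and 115.7 in knockouts. The lowest knockout value lay just above the highest control value (log2 difference 0.66, SE 0.21; limma adjusted p = 0.217). At a looser adjusted p under 0.10, Cmpk2 and Usp18 join the calls, which are then 3 higher and 2 lower of 52, where 0.87% and 1.7% of all probe sets pass, 2.57% together.

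**Figure D2:**
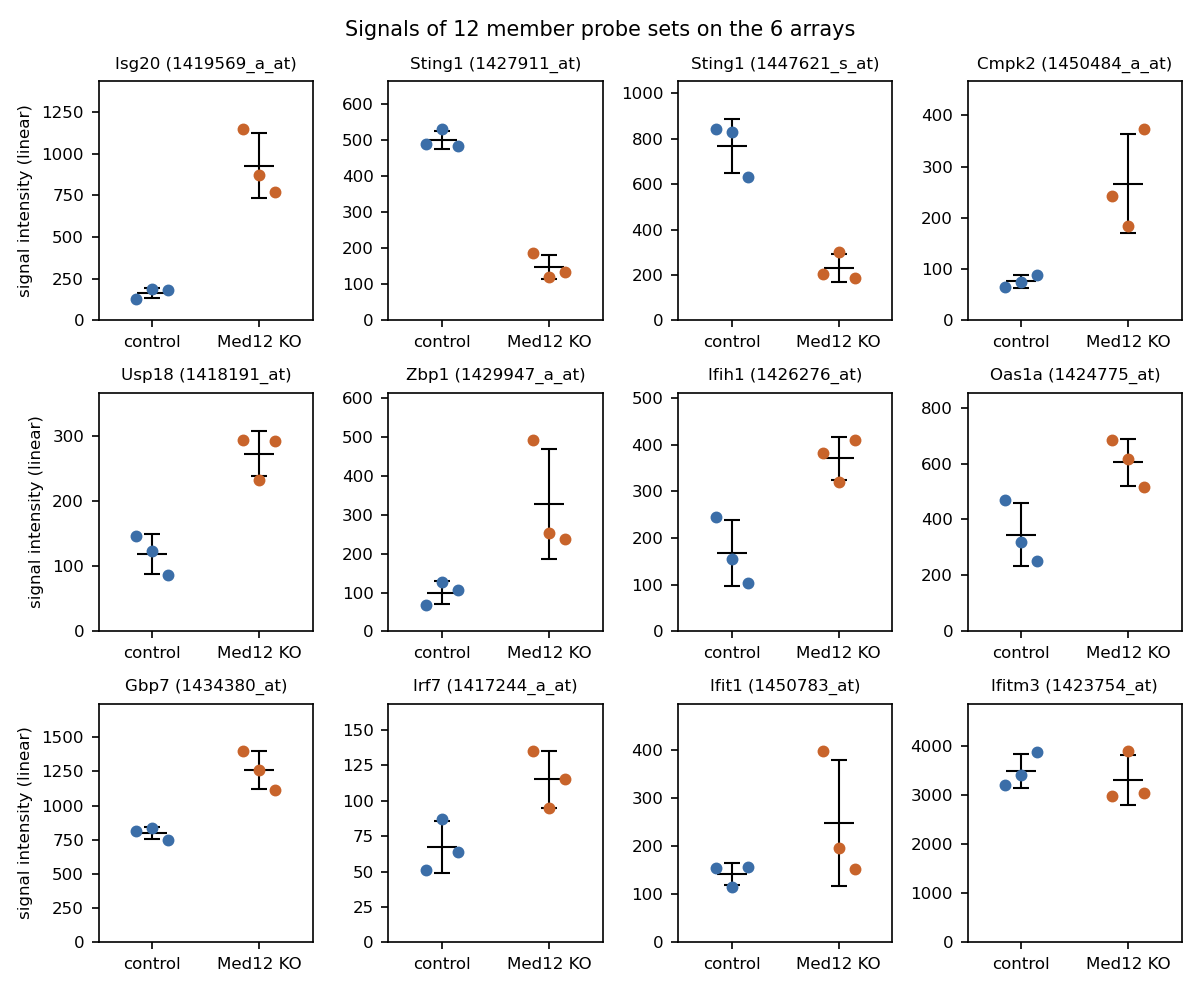
Linear signal intensity (vertical axis, from 0) on each array for 12 member probe sets, with controls in blue and Med12 knockouts in orange; bars show the mean and SD of 3 arrays. Isg20 and both Sting1 probe sets, which passed the threshold, have widely separated groups, while Ifit1 and Ifitm3 overlap.

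The OAS enzymes, which make a short adenylate that activates RNase L, were uneven. Oas1a had signals of 468.4, 319.3 and 249.9 in controls and 683.1, 615.9 and 516.5 in knockouts. The knockout arrays were all higher, but control replicate 1 came close (log2 difference 0.82, SE 0.25; limma adjusted p = 0.205). Oas3 had signals of 137.7, 55.5 and 59 in controls and 354.8, 200.8 and 85.8 in knockouts, so that knockout replicate 3 fell within the control range. Its difference was 1.10 (SE 0.54; limma adjusted p = 0.401). Oas2, the direct neighbour of Oas3, was at -0.74 with overlapping groups. The OAS-like genes Oasl1 and Oasl2, also direct neighbours, were at -0.06 and 0.47, the first of which turned to 0.22 after median centring and to 0.10 after quantile normalization. None of these 5 genes passed.

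The IFIT proteins bind viral RNA that lacks host caps, and none of their 3 genes passed. Ifit1 had signals of 155, 115.4 and 156.4 in controls and 397, 195.2 and 151.8 in knockouts. Only knockout replicates 1 and 2 exceeded the controls (log2 difference 0.64, SE 0.35; limma adjusted p = 0.456). Ifit2 had signals of 412.6, 333.1 and 270.9 in controls and 463.2, 362.4 and 287.2 in knockouts, an overlap on nearly every array (log2 difference 0.12; 95% interval -0.45 to 0.69). Ifit3 was at 0.30 with an SE of 0.60, and its control replicate 3 was at a signal of 3.1.

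None of the 5 antiviral GTPases passed. They are the guanylate-binding proteins, which coat intracellular membranes of pathogens, and the Mx proteins, which trap viral particles. Gbp7 had signals of 814.9, 835.7 and 748 in controls and 1396.3, 1262.3 and 1116.1 in knockouts. The groups did not overlap (log2 difference 0.64, SE 0.14; limma adjusted p = 0.108), nor did they on its other probe set, at 0.94. Gbp2 had signals of 81.4, 154.8 and 128.2 in controls and 349.8, 237.1 and 301.3 in knockouts on the probe set of lower p, whose name ending in x marks probes that may also bind related sequences. That difference was 1.20 (SE 0.26; limma adjusted p = 0.109), while the brighter Gbp2 probe set was at 0.60 with overlapping groups. Gbp3, the direct neighbour of Gbp7, was at 0.13 (95% interval -0.61 to 0.88). Mx1 and Mx2 were dim, at mean signals of 26.8 and 12.7 in controls and 12.7 and 7.17 in knockouts, with differences of -0.57 and -0.26, the second of which turned to 0.02 after median centring. After median centring, both Gbp7 probe sets, Usp18 and Cmpk2 passed as well, for 5 higher and 2 lower of 52 member probe sets, where 0.957% and 0.582% of all probe sets passed.

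Members at the cell surface and in its membranes gave no call, and their groups overlapped. Ifitm3, which blocks fusion of viruses with the cell, was at 3191.7, 3401.1 and 3864.6 in controls and 2968.8, 3885.9 and 3046.2 in knockouts, values shown because of their likeness, a choice made after they were seen. Its difference was -0.08 (95% interval -0.48 to 0.31), which turned to 0.19 after median centring and to 0.02 after quantile normalization. Bst2, or tetherin, which holds budding virus at the membrane, had signals of 269.4, 284.5 and 375.8 in controls and 242.4, 276.7 and 198.2 in knockouts. These overlapped (log2 difference -0.35, SE 0.19; limma adjusted p = 0.447). The chaperone gene Rtp4 had signals of 167.2, 290 and 366.9 in controls and 510.5, 442.6 and 217.5 in knockouts, where knockout replicate 3 lay among the controls (log2 difference 0.46; limma adjusted p = 0.657).

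The remaining members gave no call. Lgals3bp, a secreted galectin ligand, had signals of 1119.6, 1211.4 and 1364.8 in controls and 1425.2, 1598.4 and 2259 in knockouts, with a small gap between the groups (log2 difference 0.49, SE 0.20; limma adjusted p = 0.330). Ifi35, an interferon-induced leucine zipper protein, had signals of 976.7, 1345.5 and 844.6 in controls and 1495.5, 1156.7 and 1949.8 in knockouts, which overlapped (log2 difference 0.53, SE 0.26; limma adjusted p = 0.405). Xaf1, which promotes cell death, was at 0.54, and the mitochondrial protein gene Ifi27l2a was at -0.22, or 0.05 after median centring. Trim30a, a ubiquitin ligase that dampens Toll-like receptor signals, was at -0.42 and -0.27 on its 2 probe sets. Parp14, an ADP-ribosyltransferase, was at 0.13.

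**Figure D3:**
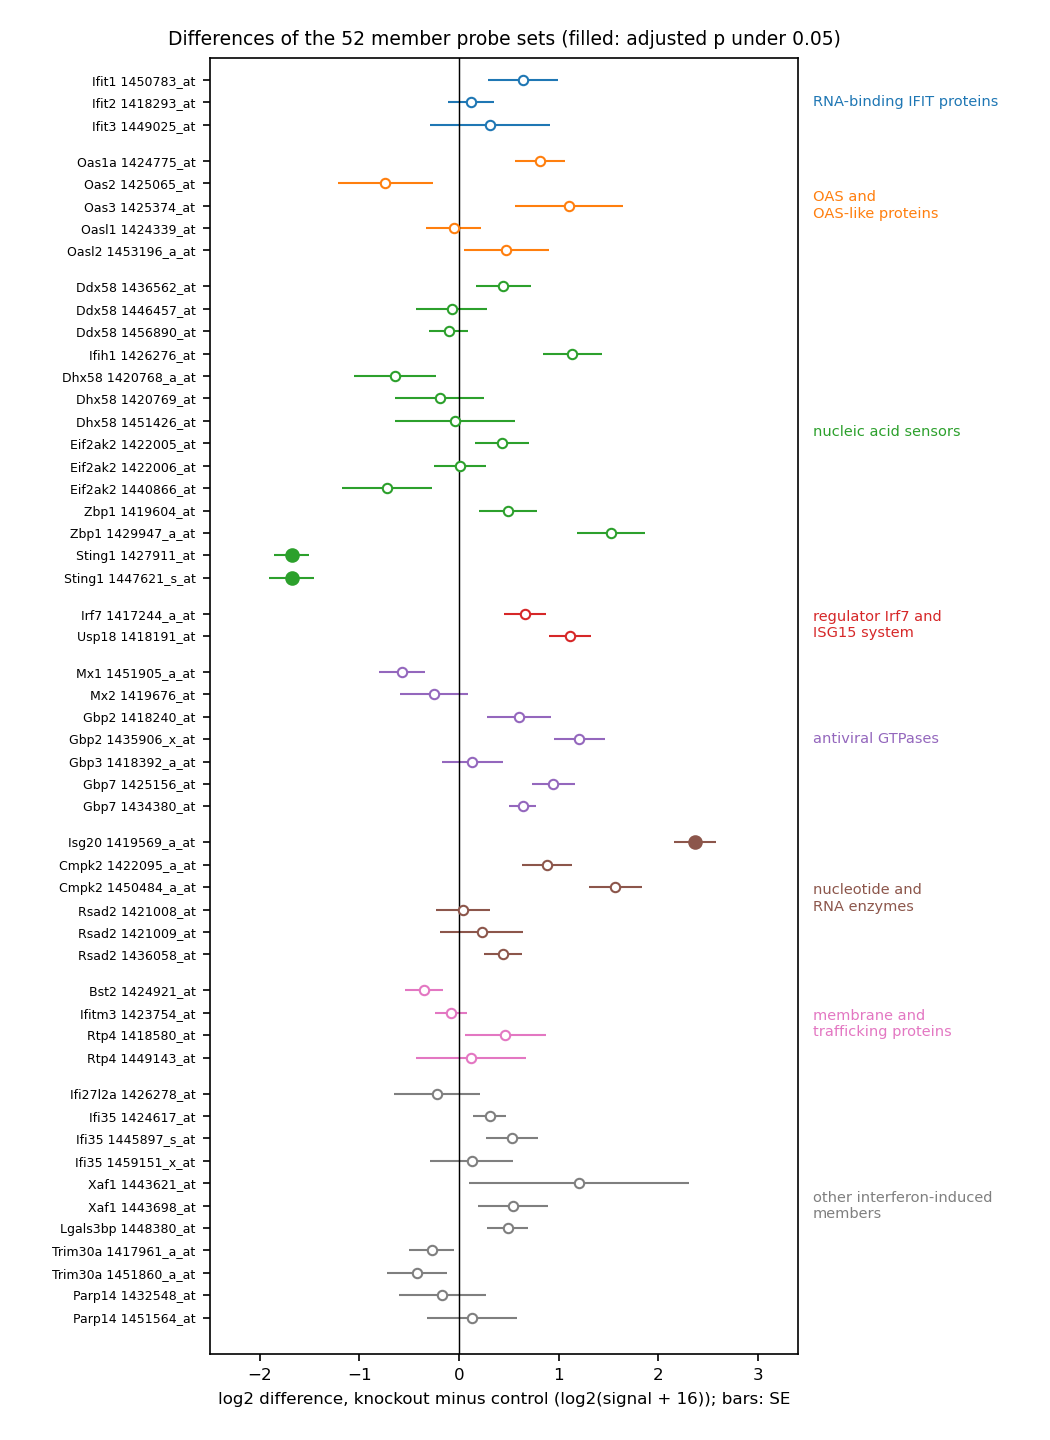
Log2 difference, knockout minus control, of log2(signal + 16) for each of the 52 member probe sets (horizontal axis; bars are SE), grouped by role, with filled points for an adjusted p under 0.05. Only the Isg20 probe set at 2.37 and the 2 Sting1 probe sets at -1.68 are filled, and within most roles the points lie on both sides of 0.

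Probe sets of a gene mostly pointed the same way. Of the 14 genes with several, 11 had differences of 1 sign throughout. The 3 exceptions were Ddx58, Eif2ak2 and Parp14, whose dimmer probe sets were lower or near 0. Among the 11, some probe sets of Dhx58, Rsad2, Ifi35, Rtp4 and Xaf1 changed sign under other settings, so their shared sign depends on the setting. Of the members that are direct neighbours, Cmpk2 and Rsad2 were at 1.57 and 0.44, and Oas3 and Oas2 at 1.10 and -0.74. Gbp7 and Gbp3 were at 0.64 and 0.13, Oasl2 and Oasl1 at 0.47 and -0.06, and Ifit2 and Ifit3 at 0.12 and 0.30. Whether neighbours differed from each other was not tested.

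The members were also described by whether their promoter windows held the letters. The 14 members with a match and a probe set had a median log2 difference of 0.44, from -0.42 (Trim30a) to 1.13 (Ifih1). The 9 members with windows but no match had a median of 0.53, from -0.06 (Oasl1) to 2.37 (Isg20). Of these groups 11 of 14 and 8 of 9 had positive differences. Matches lay within 60 bases before the start in Oas1a, Gbp7, Gbp2, Gbp3 and Trim30a, and at bases -130 to -115 in Bst2, whose difference was negative.

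The members did not stand equally high on the knockout arrays. Relative to the control mean of each gene, the median over the 33 genes was 0.65 on knockout replicate 1, 0.38 on replicate 2 and 0.09 on replicate 3 (log2). On the control arrays it lay between -0.03 and 0.02. Over all probe sets the same median was -0.08, -0.05 and -0.11 on knockout replicates 1, 2 and 3. The median signals of these arrays were 20.6, 21.3 and 16.5. Knockout replicate 1 was the highest knockout array for 23 of 33 genes, and replicate 3 the lowest for 22 of 33. The matching shares over all genes were not computed, and the part of array-wide scale in this order was not tested. Without knockout replicate 1 the median over the 52 probe sets was 0.10, and 28 were higher and 24 lower, while the median of all probe sets was -0.07. Without knockout replicate 2 it was 0.34, and without replicate 3 it was 0.40. Without control replicates 1, 2 and 3 it was 0.32, 0.37 and 0.20. No member passed limma's threshold when any single array was left out, where 13 to 17 of 52 had an unadjusted p under 0.05, against 11.9% to 15.9% of all probe sets. The adjusted p of Isg20 was then 0.0706 to 0.111, and those of Sting1 were 0.0774 to 0.146.

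**Figure D4:**
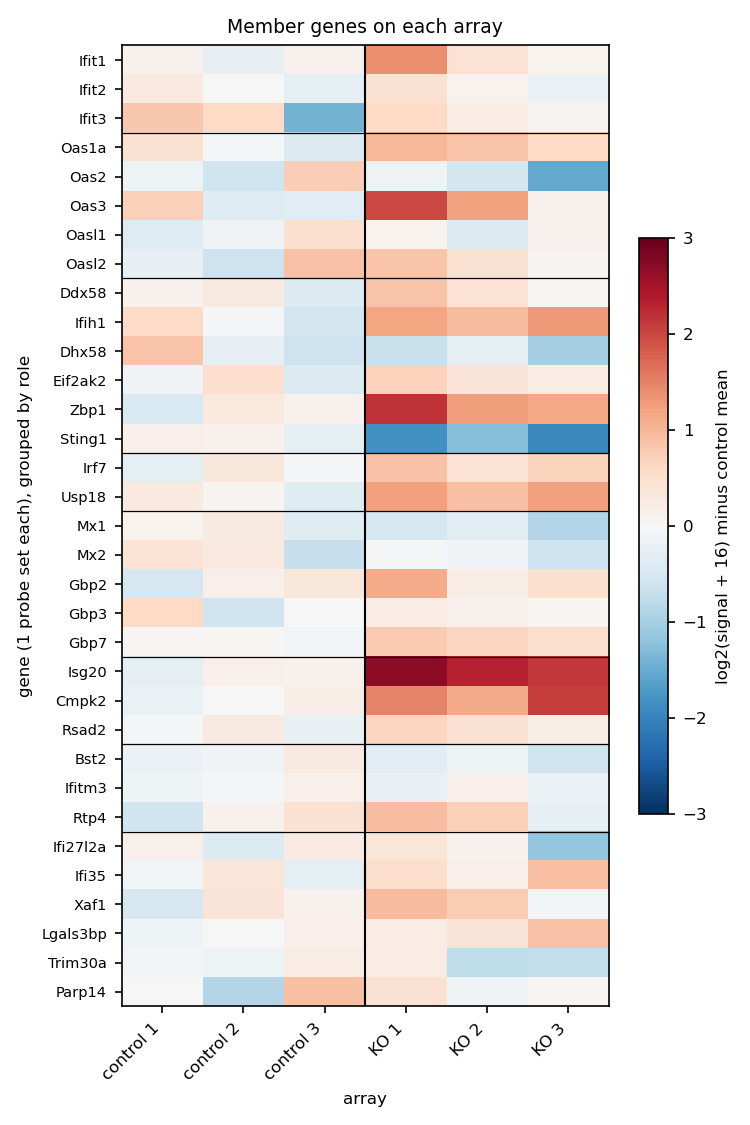
Log2(signal + 16) minus the control mean for the 33 member genes (rows, 1 probe set each, grouped by role with lines between groups) on the 6 arrays (columns), with red above and blue below the control mean. Isg20 is red and Sting1 blue on all 3 knockout arrays, and the medians over genes are 0.65, 0.38 and 0.09 on knockout replicates 1, 2 and 3.

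The genes that lead to interferon and relay its signal showed 1 call. Of 13 measured genes of interferon induction, 1 fell and 12 did not pass, where 0.638% of all genes fell and 0.352% rose. Ikbke, a kinase that with Tbk1 activates Irf3, fell from signals of 111.8, 128.6 and 103.6 in controls to 36.6, 25.6 and 35.9 in knockouts (log2 difference -1.43, SE 0.15; limma adjusted p = 0.0314). This call was lost when any array was left out, after quantile normalization, with the floor at 16 and with a trended, robust prior. Tlr7, a receptor for single-stranded RNA, was at -1.09 (limma adjusted p = 0.177), and Tlr9, a receptor for DNA, at -0.44 (0.479). The interferon gene Ifnb1 was at or under a signal of 15.7 on every array. Cgas, the enzyme that makes the messenger read by Sting1, was at 0.49 and overlapped.

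Of 11 measured genes of the interferon receptors and relay none passed limma's threshold. At an unadjusted p under 0.05 there were 2, 1 higher and 1 lower, against 7.84% and 10.3% of all genes, a share like that of all genes. Ifnar2, a chain of the receptor for type I interferon, was at -0.70 and the kinase gene Jak2 at 0.62 (limma adjusted p = 0.111 and 0.272). Each was without overlap, the only 2 of the 11, where 9.85% of all genes lay wholly above and 13.6% wholly below the controls. Ifngr2 was at 0.31 (0.453).

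Of 51 measured further interferon-stimulated genes none passed limma's threshold, and 14 had an unadjusted p under 0.05, 11 higher and 3 lower, against 7.84% and 10.3% of all genes. Their median was 0.11, against -0.05 over all genes. Of them 28 were higher and 23 lower, where 42.2% of all genes were higher. The groups did not overlap for 12 higher and 4 lower genes, against 9.85% and 13.6% of all genes. The 3 genes of smallest p, named next, were all higher. The immunity-related GTPase genes Ifi47 and Irgm2 were at 0.69 and 0.80 (limma adjusted p = 0.102 and 0.117), without overlap between groups. Slfn2, a regulator of immune cell quiescence, was at 0.84 (0.0933). After median centring 3 of these 51 genes passed, against 2.15% of all genes.

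Markers of other cell types moved between the groups at the same time. Over all genes, with 1 probe set each, 0.352% rose, 0.638% fell and 42.2% were higher in knockouts. All 8 monocyte and macrophage markers were lower in knockouts and 3 of them fell. Their signals summed to 2260.8 to 2895 on control arrays and 337.5 to 716.7 on knockout arrays, with Adgre1 under 16 on every array and Csf1r, which fell, at 451.5 to 1270.8 in controls. Of 5 erythroid markers 4 rose, while Slc4a1 was at -1.60, lower without overlap (limma adjusted p = 0.260). The 5 summed to 1237.8 to 1458.9 on control arrays and 3976.8 to 5762.7 on knockout arrays. Of 5 mast cell and basophil markers 1, Cma1, rose. In all 4 were higher and 1, Mcpt8, was lower, at -1.69 (limma adjusted p = 0.298), while Cpa3 was nearly level at 0.07. The 5 summed to 1208.9 to 1429.2 and 1918.1 to 2152.1. Of 5 megakaryocyte markers 1, Itga2b, rose, with sums of 3053.2 to 4451.3 and 4656.5 to 6062.8. Most of these sums came from Pf4, which was at 0.10, and Gp9 and Vwf were at 0.15 and 0.19 with overlapping groups. Gp1bb was higher without overlap, at 1.61 (limma adjusted p = 0.0921). The lists without a call are given by their sums on control and then knockout arrays. The 5 neutrophil markers summed to 539.9 to 1093.6 and 55.3 to 474.2. Ltf alone of them was higher, at 0.14. Both Ltf and S100a8, the latter at -1.74, overlapped between groups. The 4 B cell markers summed to 47.5 to 138.6 and 14.2 to 26.2, with Ms4a1 under 16 throughout. The 5 endothelial markers summed to 1084.9 to 1245.8 and 678.6 to 710, with Cdh5 under 16. Of these 5 only Plvap was higher, at 1.59 without overlap (limma adjusted p = 0.218). The 5 plasmacytoid dendritic cell markers summed to 1091.7 to 1352.4 and 545.6 to 785.3. Most of this sum came from Tcf4, at -1.14, and Klk1 alone of the 5 was higher, at 0.68. The 6 T and NK cell markers summed to 1051.3 to 1301.4 and 1065.8 to 1434.5, with Cd3g and Ncr1 under 16 throughout. Most of that sum came from Nkg7, at 917.9 to 1342.4. Of these 6, 3 were higher and 3 lower. Gzma was among the lower ones, at -1.69 without overlap (limma adjusted p = 0.152). The part of these shifts, and of that in the stem and progenitor markers, in the differences of Isg20, Sting1 and the other members was not tested. In sorted bulk cells, fewer cells of a type and less RNA per cell cannot be told apart.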

How the data were processed

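Total RNA (per the labels' protocols, amplified with a NuGEN Ovation kit before biotin labelling) was measured on 6 arrays. The authors deposited 1 linear signal intensity per probe set and array. The submitters' processing notes name RMA, but RMA gives log2 values without zeros, and these values reach 0 and have a mean of 150 on every array after trimming 2% at each end, so the method that made them is not given in the sources used here. The number of arrays limits the precision.

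Of 45101 probe sets 64 controls were left out. The annotation gave 34945 probe sets 1 symbol, 932 several and 9160 none, and only the first were named. Values were taken as log2(signal + 16) and tested two-sided in R 4.3.3 with limma 3.58.1 (lmFit, then eBayes), which had 4 degrees of freedom from residuals and 1.96 from its prior. P-values were adjusted by Benjamini and Hochberg's method over all probe sets tested. The steps were tested on simulated data. The members and lists were chosen with earlier results of these data known. Array values are given for members past the threshold and the 2 of smallest unadjusted p per role; from other lists, genes past the threshold and the 3 of smallest p are named, apart from names said to be chosen after their values were seen. Cgas, Ifnb1 and the cell type markers named were also chosen after their values were seen. Alternatives were other priors, scalings, filters and offsets, the replicate number as a block, 1 probe set per gene, a looser threshold, and leaving out each array. Background correction and scan batches were not analysed here.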

Additional observations from a re-analysis of the deposited data

How the results depend on the processing

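Isg20 and Sting1 kept their direction under all 15 other settings, but no call held without any 1 array, with the replicate block or with signals floored at 16, and the brighter Sting1 probe set also lost its call after quantile normalization and with 4 or 64 added. The number of arrays limits what can be called. Member probe sets past the threshold were 3. They were 2 after quantile normalization, with 4 or 64 added, and with 1 probe set per gene. They were 7 with each array centred on its median and 5 at an adjusted p under 0.10. Without any 1 array they were 0, as they were with signals floored at 16. With that floor limma's unadjusted p was under 0.05 for 13 of 52, against 11.1% of all probe sets. All probe sets past the threshold were 343; they were 693 after centring, 715 and 756 without the dimmest 25% and dimmer 50%, 84 with the floor, and 0 to 10 when an array was left out, the 0 arising without knockout replicate 1 or 3, where limma's unadjusted p was under 0.05 for 6219 and 5340. The share of higher calls was 28.9%, or 62.2% after centring and 43% after quantile normalization. The member median of 0.26 was 0.54 after centring and 0.10 to 0.40 when an array was left out. Same-numbered arrays did not deviate together over all probe sets (correlations 0.0190, 0.0193 and 0.00193). With few arrays and many dim probe sets, this cannot show whether same-numbered arrays were handled together, and the labels do not say what the numbers mean. With the replicate block 0 probe sets passed limma's test, members and Ikbke included. At an unadjusted p under 0.05 there were 6752 probe sets, or 15% of all, and 15 of 52 member probe sets. Med12, at -2.17, passed with the trended and robust prior and without the dimmer 25% or 50% of probe sets (limma adjusted p = 0.0339, 0.0273 and 0.0233).

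The signs of some uncalled member probe sets changed with the setting; the cause was not tested. After centring, Oasl1 was at 0.22, Ddx58 at 0.20 and 0.17, Dhx58 at 0.080 and 0.24, Mx2 at 0.018, Ifitm3 at 0.19, Ifi27l2a at 0.052 and Parp14 at 0.11. After quantile normalization, Oasl1 was at 0.10, Ddx58 at 0.050 and 0.064, Dhx58 at 0.14, Ifitm3 at 0.016 and Parp14 at 0.048. With the floor, Dhx58 was at 0.026 and Rsad2 at -0.00047. When an array was left out, the ranges that crossed 0 were -0.31 to 0.26 and -0.29 to 0.010 for Ddx58, -0.57 to 0.065 and -0.40 to 0.48 for Dhx58, -0.13 to 0.27 for Eif2ak2, -0.17 to 0.43 for Gbp3, -0.52 to 0.25 for Ifi27l2a, -0.18 to 0.57 for Ifi35, -0.048 to 0.28 for Ifit2, -0.40 to 0.71 for Ifit3, -0.25 to 0.19 for Oasl1, -0.43 to 0.28 and -0.31 to 0.58 for Parp14, -0.19 to 0.20 and -0.21 to 0.46 for Rsad2, -0.45 to 0.52 for Rtp4, and -0.11 to 1.91 for Xaf1.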

Other observations

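A few interferon-stimulated genes were bright on some arrays of a group and near background on others. Of 127 probe sets of the members and the other interferon lists, 5 had a highest signal over 5 times the lowest within a group, after adding 16 to each. Trim34a, a member of a cluster of TRIM ubiquitin ligase genes, had signals of 32.2, 41.7 and 734.7 in controls and 421.8, 365.4 and 250.4 in knockouts. Trim12a, of the same cluster, had 5.5, 8.9 and 156.8 in controls and 188.4, 220.5 and 153.2 in knockouts. Control replicate 3 lay within the knockout range for Trim12a and above it for Trim34a, while control replicates 1 and 2 were below it for both. The neighbouring family member Trim30a did not show this, with 829.9, 784 and 1023 in controls and 1026.2, 510.9 and 513.4 in knockouts.

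The dimmer Xaf1 probe set had a signal of 428.6 on knockout replicate 1 and of 6.5 to 29.6 on the other 5 arrays. Ifi44l had signals of 130.7, 3.2 and 72.6 in controls and 3.5, 27.8 and 0.3 in knockouts, and Ifi203 had 153.1 on control replicate 1 and 11 to 36.1 elsewhere. These patterns were chosen after the values were seen and no cause was tested.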
